A study of Mus musculus with 13 samples.

Results

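The 38 genes described here encode the machinery of autophagy and mitophagy and a group of lysosomal proteins. They were taken by gene symbol from a list that was drawn up with earlier results of these data known, and each was read on the array feature annotated to that symbol alone. A feature was found for 35 of the 38 genes, 28 of the autophagy core and 7 of the lysosome, among 22206 non-control features of the array, 19572 of which had 1 gene symbol. No feature was named for Optn, Pink1 or Ctsd, which were not analysed here, and no measured gene had more than 1 feature. Expression was measured on Clariom S mouse arrays in pooled RNA of tumours grown in a mammary fat pad of BALB/c mice. The tumours came from 3 cell lines. These were 4T1OE, a transduced 4T1 line that overexpresses NLRX1, 4T1OE-CTL, the transduced control line made for it, and untransduced parental 4T1, a mouse mammary carcinoma line. Each line was grown in Nlrx1-/- and in WT BALB/c hosts, with 2 arrays for each of the 6 groups. All tumours of a line came from the same injected cells, so an effect of NLRX1 cannot be told apart from any other difference between the lines. The tumour cells keep the Nlrx1 gene of the 4T1 line whatever the host, and host cells made up an unknown share of each pool. The labels do not give the size of the pools, and nothing in the labels says that the pools were independent, so the p-values measure the spread between pools.

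Autophagy encloses cytoplasm or organelles in a double membrane, the autophagosome, and delivers it to the lysosome for breakdown. The ULK kinase complex starts the process, a Beclin-1 lipid kinase complex and the ATG9A and WIPI proteins build the membrane, and a pair of conjugation systems couples LC3 and GABARAP proteins to it, where cargo receptors bind. Mitophagy is the same process applied to mitochondria, and NLRX1 is a NOD-like receptor that resides in mitochondria. TFEB and TFE3 are transcription factors that bind the CACGTG motif in promoters of lysosomal and autophagy genes. Macrophages are rich in lysosomes and express their genes at high levels.

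The deposited values were log2 expression values, on which a difference of 1 is a 2-fold change. The label of the Nlrx1-/- parental replicate 1 array carried the array service's advice to leave it out of analysis. It had the lowest median correlation with the other arrays (r = 0.896 across features) and was left out of all fits, so that 4 4T1OE, 4 4T1OE-CTL and 3 parental arrays were tested. That array was the lowest of all 12 for 20 of the 35 members, including all 7 lysosomal ones, and the highest for 1, Tfeb. The standard deviation of the values within an array was 3.09 to 3.12 on the 4T1OE arrays, 2.78 to 3.07 on the 4T1OE-CTL arrays and 2.89 to 3.07 on the fitted parental arrays. Nlrx1 itself read 9.31 to 10.67 on the 4T1OE arrays, 5.99 to 7.06 on the 4T1OE-CTL arrays and 6.14 to 7.13 on the fitted parental arrays. Atg13 lay under the median of the negative control features on all 12 arrays, so no size of difference is given for it. Atg7 lay under that median on 3 arrays, Ulk1 on 2 and Wipi1 on 1, the left-out array being among them each time.

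Promoters of 30 of the 38 genes were matched in RefSeq (GRCm38.p6), from 250 bases before to 50 after the gene's start. The CACGTG motif, which reads the same on both strands, was present in 7 of these 30 promoters (23.3%), against 1559 of the 17491 protein-coding genes with a promoter (8.91%). It was present in 3 of the 7 lysosomal genes matched and in 4 of 23 core genes. The 250 bases before the start are printed for the 4 members whose difference between lines passed the test, since these genes carry the calls, and 1 of the 4, Lamp1, held the motif in this stretch. Capitals mark CACGTG. The stretches are chr8:13158911-13159160 (plus strand) for Lamp1, chr1:75192011-75192260 (minus strand) for Atg9a, chr11:61855093-61855342 (minus strand) for Ulk2 and chr15:102722179-102722428 (minus strand) for Calcoco1, each written 5′ to 3′ on the strand of the gene.
Lamp1: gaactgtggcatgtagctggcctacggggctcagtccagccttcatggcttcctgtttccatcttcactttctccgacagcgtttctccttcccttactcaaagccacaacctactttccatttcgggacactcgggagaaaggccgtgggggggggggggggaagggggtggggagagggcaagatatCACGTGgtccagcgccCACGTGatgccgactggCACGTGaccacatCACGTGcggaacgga
Atg9a: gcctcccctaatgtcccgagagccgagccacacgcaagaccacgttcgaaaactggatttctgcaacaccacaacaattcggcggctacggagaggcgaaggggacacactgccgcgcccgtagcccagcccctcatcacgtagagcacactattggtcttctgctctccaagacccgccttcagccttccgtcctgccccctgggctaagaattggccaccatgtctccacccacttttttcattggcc
Ulk2: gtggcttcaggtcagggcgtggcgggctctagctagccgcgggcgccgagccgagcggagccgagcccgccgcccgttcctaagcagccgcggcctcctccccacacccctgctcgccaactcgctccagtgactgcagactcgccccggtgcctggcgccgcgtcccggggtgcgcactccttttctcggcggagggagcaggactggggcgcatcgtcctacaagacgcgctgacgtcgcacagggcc
Calcoco1: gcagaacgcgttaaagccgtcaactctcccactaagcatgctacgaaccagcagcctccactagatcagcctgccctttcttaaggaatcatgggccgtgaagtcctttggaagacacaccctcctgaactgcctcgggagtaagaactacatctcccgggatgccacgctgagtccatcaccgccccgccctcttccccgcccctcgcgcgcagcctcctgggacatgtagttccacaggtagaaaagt
The Lamp1 promoter held 4 copies, whose first bases lay 61, 45, 28 and 15 bases before the start. The promoters of Atg9a, Ulk2 and Calcoco1 held 0 copies in this window. Atg3 held 2 copies, and Atg5, Atg7, Atg14, Ctsl and Ctsd held the motif as well. A match describes the letters of the window and not binding.

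Between 4T1OE and 4T1OE-CTL tumours, most autophagy and lysosome transcripts were on the higher side in 4T1OE, and 2 passed the test. Atg9a, the membrane protein of the vesicles that seed the autophagosome, and Lamp1, an abundant glycoprotein of the lysosomal membrane, rose. The difference was positive for 30 of 35 members, against 45.1% of all features, with a median of 0.52 over the members and -0.05 over all features. Among the 14804 brightest features, which held 34 of the 35 members, the median over features was 0.11. The core median was 0.45, with 24 of 28 positive, and the lysosomal median 0.76, with 6 of 7 positive. The 2 calls (limma, adjusted p under 0.05) compare with 4.73% of all features called in either direction and 3.69% called higher, so the share of members called was close to that of the array. The 4T1OE arrays lay wholly above the 4T1OE-CTL arrays for 13 members, 8 core and 5 lysosomal, against 9.39% of all features. They lay wholly below for 1 member, Tfeb, against 7.13% of all features, or 16.5% in either direction. In the same comparison 15 of 15 macrophage markers were on the higher side, with a median of 1.35. In bulk tumour RNA, fewer cells of a type and less RNA per cell cannot be told apart.

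These differences were smaller in fits that took the spread of the values within an array into account. The standard deviation was 3.09 to 3.12 on the 4T1OE arrays and 2.78 to 3.07 on the 4T1OE-CTL arrays, without overlap. An effect of this spread therefore cannot be told apart from a difference between the lines. When the standard deviation of each array entered the fit as a covariate, the median over the members was 0.0664 and 0 were called. Without the 4 fitted arrays whose standard deviation was under 3 the median was 0.18. These were both Nlrx1-/- 4T1OE-CTL arrays and the WT 4T1OE-CTL and WT parental replicate 1 arrays. Only the WT 4T1OE-CTL replicate 2 array was then left of its line, so no count of calls is given for that setting. Quantile normalization gave a median of 0.22 and 0 calls. Apart from these settings, 0 members were called when any 1 of the 4 4T1OE arrays, either Nlrx1-/- 4T1OE-CTL array or the WT parental replicate 2 array was left out, and 7 without the WT 4T1OE-CTL replicate 2 array.

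**Figure D1:**
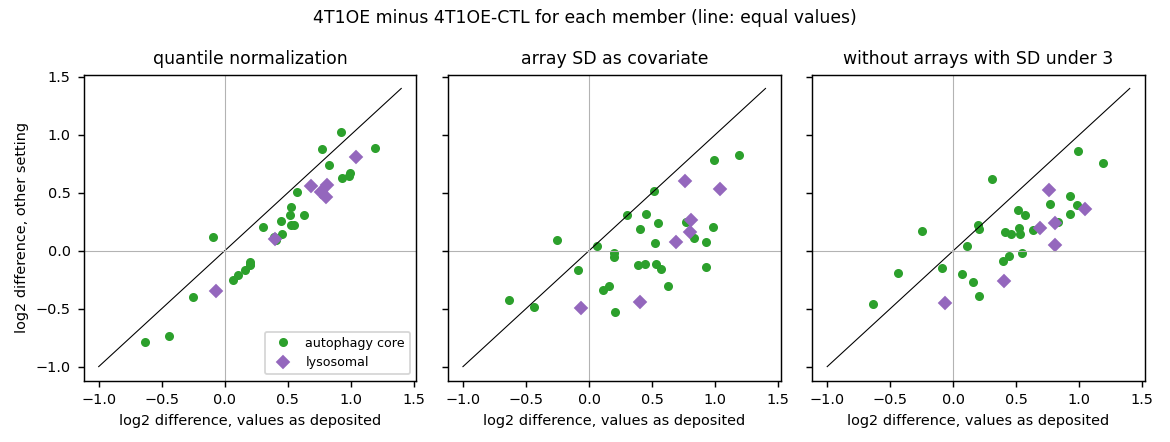
Log2 difference of 4T1OE minus 4T1OE-CTL for each of the 35 members, from the deposited values on the horizontal axis and under quantile normalization, with the array standard deviation (SD) as covariate, or without the arrays with SD under 3 on the vertical axis. Each point is a gene, the diagonal marks equal values, and most points lie below it, with the median over members going to 0.22, 0.0664 and 0.18 in the 3 panels, against 0.52 as deposited.

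Between 4T1OE-CTL and parental tumours the members lay mostly on the lower side in 4T1OE-CTL, and 2 core genes fell, Calcoco1, a cargo receptor of the NDP52 family, and Ulk2, a kinase that starts autophagy. The share of all features called was 2.59% in either direction, 0.968% higher and 1.62% lower. The difference was negative for 26 of 35 members and the median was -0.47, against 0.02 over all features. Of the core, 23 of 28 were negative with a median of -0.50, whereas the 7 lysosomal members had a median of 0.03 with 3 negative. Of the members, 6, Atg13 among them, lay wholly lower on the 4T1OE-CTL arrays than on the fitted parental arrays, against 6.42% of all features. Atg3 alone lay wholly higher, against 4.88% of all features, or 11.3% in either direction. With the left-out array restored the median was -0.0499 and 0 members were called. Leaving out the arrays with a standard deviation under 3 left only the WT 4T1OE-CTL replicate 2 array of that line. No count of calls is therefore given for it.

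The comparison of 4T1OE with parental tumours called 0 members, against 1.33% of all features, 0.887% higher and 0.441% lower. The 4T1OE arrays lay wholly above the fitted parental arrays for 3 members and wholly below for 6, against 9.96% and 7.87% of all features, or 17.8% in either direction. The limma p was under 0.05 before adjustment for 8 of 35 members, against 13.8% of all features. Atg13, under the negative control median throughout, was among these 8 and among the 6 wholly below. The median was -0.02 over the core (11 of 28 positive) and 0.68 over the lysosomal members (6 of 7 positive), against -0.03 over all features. No test of core against lysosomal genes was made. The 3 comparisons of lines share their arrays, so a gene low in 4T1OE-CTL tumours enters 2 of them with opposite signs by construction.

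**Figure D2:**
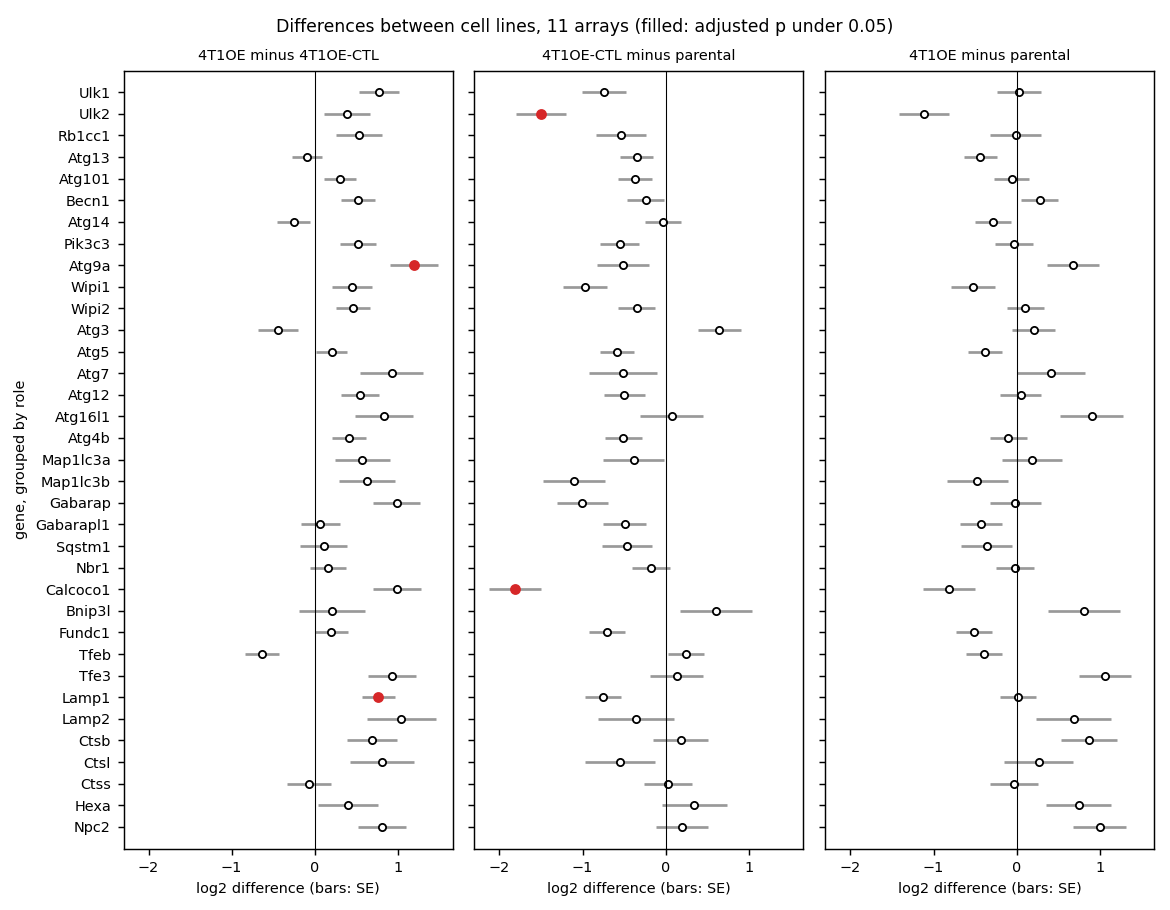
Log2 differences of the 35 members, grouped by role from initiation at the top to lysosome at the bottom, for 4T1OE minus 4T1OE-CTL, 4T1OE-CTL minus parental and 4T1OE minus parental. Points are limma estimates from 11 arrays, bars are SE, and filled red points passed an adjusted p of 0.05. The filled points are Atg9a and Lamp1 in the first panel and Ulk2 and Calcoco1 in the second.

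Host genotype called 0 members and 0% of all features. The median difference between Nlrx1-/- and WT hosts was 0.05 over the members and 0.00 over all features, with 20 of 35 members positive. Differences ran from -0.55 for Atg16l1 to 0.46 for Atg101, which alone had a limma p under 0.05 before adjustment, against 4.3% of all features. For 0 of 35 members did the Nlrx1-/- and WT arrays lie apart without overlap, against 0.207% of all features.

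**Figure D3:**
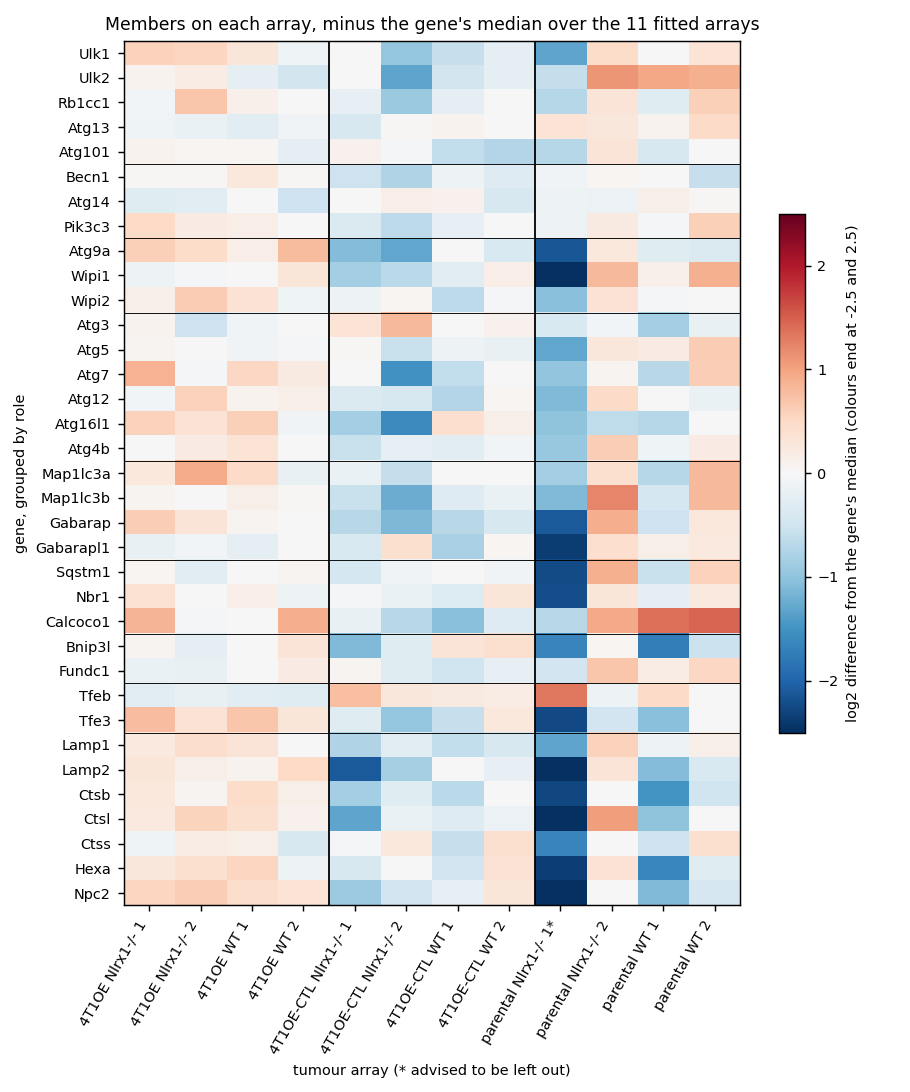
Heat map of the 35 measured members (rows, grouped by role) on the 12 tumour arrays (columns, by line and host), as log2 distance from the median of that gene on the 11 fitted arrays. Red is above and blue below that median, and the left-out array, marked with an asterisk, is the bluest column with a member median of -1.11.

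Of the initiation genes, Ulk2 fell in 4T1OE-CTL tumours. ULK2 is a serine/threonine kinase related to ULK1. It read 9.03 and 9.13 (Nlrx1-/- hosts) and 8.70 and 8.50 (WT hosts) in 4T1OE tumours, against 8.95 and 7.63 (Nlrx1-/- hosts) and 8.49 and 8.73 (WT hosts) in 4T1OE-CTL tumours. Parental tumours read 10.05 (Nlrx1-/- host) and 9.91 and 9.84 (WT hosts), and 8.35 on the left-out array. All 3 fitted parental arrays lay above every array of the transduced lines, and 4T1OE and 4T1OE-CTL overlapped. The mean was 8.84 ± 0.29 in 4T1OE (SD, n = 4), 8.45 ± 0.58 in 4T1OE-CTL (n = 4) and 9.93 ± 0.11 in parental tumours (n = 3). By limma, 4T1OE-CTL minus parental was -1.50 (SE 0.30, adjusted p = 0.0229), and 4T1OE minus parental was -1.11 (SE 0.30, adjusted p = 0.104). The call in 4T1OE-CTL minus parental was lost with all 12 arrays and with the compared groups alone (adjusted p = 0.127). It was also lost without the WT parental replicate 2 (0.0688), the Nlrx1-/- parental replicate 2 (0.156) or the WT 4T1OE-CTL replicate 1 array (0.0529).

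Atg101, which stabilises ATG13 in the ULK complex, read 7.05 and 7.02 (Nlrx1-/- hosts) and 7.01 and 6.74 (WT hosts) in 4T1OE tumours, against 7.08 and 6.94 (Nlrx1-/- hosts) and 6.36 and 6.23 (WT hosts) in 4T1OE-CTL tumours. In parental tumours it read 7.30 (Nlrx1-/- host) and 6.56 and 6.97 (WT hosts), with 6.26 on the left-out array. The fitted Nlrx1-/- arrays lay at 6.94 or above and the WT arrays at 7.01 or below, so they overlapped, and the host difference of 0.46 (SE 0.16, adjusted p = 1.000) failed the limma test. Ulk1, its partner Rb1cc1 and Atg13 make up the rest of the group. Over the 4 initiation genes other than Atg13 the differences of 4T1OE minus 4T1OE-CTL ran from 0.30 to 0.77, the highest being Ulk1 (adjusted p = 0.0845), and those of 4T1OE-CTL minus parental from -1.50 to -0.37.

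The nucleation genes Becn1, Pik3c3 and Atg14 encode subunits of the kinase complex that makes phosphatidylinositol 3-phosphate. Differences of 4T1OE minus 4T1OE-CTL were 0.52 for Becn1 and 0.52 for Pik3c3, with all 4 4T1OE arrays above all 4 4T1OE-CTL arrays for both, and neither was called (limma, adjusted p = 0.155 and 0.165). Atg14, the subunit that directs the complex to autophagy, read 6.93 and 6.96 (Nlrx1-/- hosts) and 7.24 and 6.72 (WT hosts) in 4T1OE tumours. In 4T1OE-CTL tumours it read 7.25 and 7.40 (Nlrx1-/- hosts) and 7.35 and 6.83 (WT hosts), and in parental tumours 7.09 (Nlrx1-/- host) and 7.38 and 7.26 (WT hosts), with 7.11 on the left-out array. The lines overlapped throughout, and 4T1OE minus 4T1OE-CTL was -0.25 (SE 0.20, adjusted p = 0.455) by limma.

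Among the membrane genes Atg9a was the one that rose in 4T1OE tumours. ATG9A is a lipid scramblase, the transmembrane protein of the core machinery. It read 10.09 and 9.95 (Nlrx1-/- hosts) and 9.66 and 10.29 (WT hosts) in 4T1OE tumours, against 8.42 and 8.21 (Nlrx1-/- hosts) and 9.50 and 9.12 (WT hosts) in 4T1OE-CTL tumours. Parental tumours read 9.76 (Nlrx1-/- host) and 9.19 and 9.13 (WT hosts), with 7.37 on the left-out array. All 4 4T1OE arrays lay above all 4 4T1OE-CTL arrays, among which both Nlrx1-/- pools were lower than both WT pools. The median was 10.02 in 4T1OE (SD 0.26, n = 4), 8.77 in 4T1OE-CTL (SD 0.60, n = 4) and 9.19 in parental tumours (SD 0.35, n = 3). The difference of 4T1OE minus 4T1OE-CTL was 1.19 (SE 0.29, adjusted p = 0.04) by limma. It was 1.19 with an adjusted p of 0.222 once all 12 arrays were fitted and 0.83 (0.672) with the array standard deviation as covariate. Without the arrays under 3 it was 0.76, with only the WT 4T1OE-CTL replicate 2 array left of its line.

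Within Nlrx1-/- hosts Atg9a was 1.71 higher in 4T1OE relative to 4T1OE-CTL tumours (SE 0.29, limma adjusted p = 0.0343). It was the 1 member called there, against 1.19% of all features, 1.1% higher and 0.0946% lower. Within WT hosts the difference was 0.67 (SE 0.29, adjusted p = 0.613), and 0 members were called, against 0.0135% of all features. The call in Nlrx1-/- hosts was lost with all 12 arrays (adjusted p = 0.417), quantile normalization (0.0907), the array standard deviation as covariate (0.456), the compared groups alone (0.0982) and the replicate number as a block (0.0572). It was also lost without any 1 of the 4 4T1OE arrays or the Nlrx1-/- 4T1OE-CTL replicate 2 array. The test of the difference between hosts, the interaction of 1.04 (SE 0.41, adjusted p = 0.999), failed. The interaction called 0 members and 0% of all features, so a difference between hosts in the effect of the line was not shown.

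**Figure D4:**
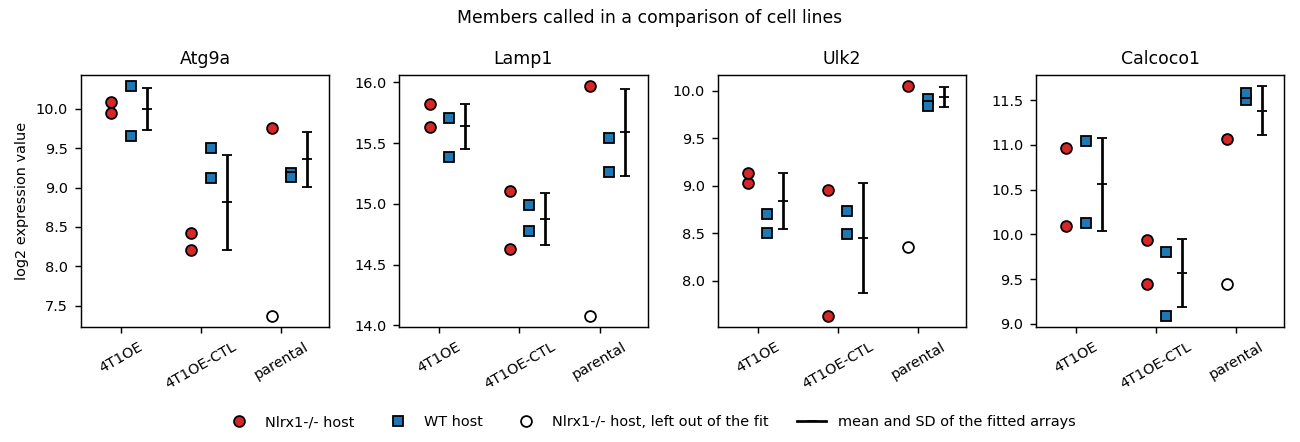
Log2 expression values of the 4 members called between lines, by line, for Nlrx1-/- hosts (red circles) and WT hosts (blue squares), with the mean and SD of the fitted arrays as bars. The open circle is the left-out array. Atg9a and Lamp1 are higher on the 4T1OE than on the 4T1OE-CTL arrays without overlap, and Ulk2 and Calcoco1 are higher on the fitted parental arrays than on either transduced line.

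WIPI proteins bind the phosphatidylinositol 3-phosphate of the growing membrane. Wipi1 read 7.76 and 7.85 (Nlrx1-/- hosts) and 7.88 and 8.18 (WT hosts) in 4T1OE tumours, against 7.04 and 7.20 (Nlrx1-/- hosts) and 7.61 and 8.05 (WT hosts) in 4T1OE-CTL tumours. Parental tumours read 8.70 (Nlrx1-/- host) and 8.01 and 8.76 (WT hosts), and the left-out array 4.55, which is under its negative control median. Neighbouring lines overlapped, and 4T1OE-CTL minus parental was -0.97 (SE 0.26, adjusted p = 0.079) by limma. For Wipi2 the 4T1OE values were 10.72 and 11.21 (Nlrx1-/- hosts) and 10.94 and 10.47 (WT hosts), and the 4T1OE-CTL values 10.44 and 10.62 (Nlrx1-/- hosts) and 9.92 and 10.54 (WT hosts). Its parental values were 10.93 (Nlrx1-/- host) and 10.54 and 10.57 (WT hosts), with 9.53 on the left-out array. The lines overlapped, and no comparison of lines passed the test, the largest difference being 0.45 (SE 0.20, adjusted p = 0.201) for 4T1OE minus 4T1OE-CTL.

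Conjugation genes gave 0 calls. Atg3, the E2-like enzyme that attaches lipid to LC3, read 11.57 and 10.97 (Nlrx1-/- hosts) and 11.40 and 11.49 (WT hosts) in 4T1OE tumours, against 11.82 and 12.29 (Nlrx1-/- hosts) and 11.48 and 11.59 (WT hosts) in 4T1OE-CTL tumours. Parental tumours read 11.41 (Nlrx1-/- host) and 10.63 and 11.30 (WT hosts), with 11.09 on the left-out array. The 4T1OE-CTL arrays lay wholly above the 3 fitted parental arrays, the opposite side from most members, and 4T1OE-CTL minus parental was 0.64 (SE 0.26, adjusted p = 0.248) by limma. Atg16l1, part of the E3-like complex that places LC3 on the membrane, read 8.13 and 7.93 (Nlrx1-/- hosts) and 8.16 and 7.47 (WT hosts) in 4T1OE tumours. In 4T1OE-CTL tumours it read 6.71 and 5.97 (Nlrx1-/- hosts) and 7.98 and 7.71 (WT hosts), and in parental tumours 6.92 (Nlrx1-/- host) and 6.85 and 7.56 (WT hosts), with 6.56 on the left-out array. The Nlrx1-/- 4T1OE-CTL pools were the lowest fitted arrays and lay apart from both WT pools of that line. In Nlrx1-/- hosts 4T1OE minus 4T1OE-CTL was 1.69 (SE 0.37, adjusted p = 0.0573), and its limma interaction of 1.72 (SE 0.53, adjusted p = 0.999) failed the test. Atg5, Atg12, the E1-like enzyme gene Atg7 and the protease gene Atg4b complete the group. Their differences of 4T1OE minus 4T1OE-CTL ran from 0.20 for Atg5 to 0.92 for Atg7, with limma adjusted p values of 0.532 and 0.161.

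The LC3 and GABARAP genes encode the proteins that coat the autophagosome. Map1lc3b read 10.98 and 10.91 (Nlrx1-/- hosts) and 11.06 and 10.93 (WT hosts) in 4T1OE tumours, against 10.36 and 9.67 (Nlrx1-/- hosts) and 10.59 and 10.74 (WT hosts) in 4T1OE-CTL tumours. Parental tumours read 12.13 (Nlrx1-/- host) and 10.47 and 11.73 (WT hosts), with 9.80 on the left-out array. The 4T1OE arrays were close together and lay above all 4T1OE-CTL arrays, while the parental pools spread over both. By limma 4T1OE-CTL minus parental was -1.10 (SE 0.37, adjusted p = 0.159). Gabarap was 0.98 higher in 4T1OE relative to 4T1OE-CTL tumours, without overlap, and the adjusted p was 0.0666. The differences of Map1lc3a and Gabarapl1 were 0.57 and 0.0664, and none of these 4 genes was called in any comparison.

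Cargo receptors link ubiquitinated or other cargo to LC3. Calcoco1 read 10.97 and 10.09 (Nlrx1-/- hosts) and 10.13 and 11.04 (WT hosts) in 4T1OE tumours, against 9.94 and 9.44 (Nlrx1-/- hosts) and 9.09 and 9.80 (WT hosts) in 4T1OE-CTL tumours. Parental tumours read 11.07 (Nlrx1-/- host) and 11.50 and 11.58 (WT hosts), with 9.44 on the left-out array. The 3 lines did not overlap on the fitted arrays, parental being highest and 4T1OE-CTL lowest. Means were 10.56 ± 0.52 in 4T1OE (SD, n = 4), 9.57 ± 0.38 in 4T1OE-CTL (n = 4) and 11.39 ± 0.28 in parental tumours (n = 3). By limma 4T1OE-CTL minus parental was -1.81 (SE 0.31, adjusted p = 0.0114), the largest difference of any member in the 3 comparisons of lines. It was no longer called with all 12 arrays (-1.33, adjusted p = 0.253). Without the arrays with a standard deviation under 3 it was -1.63, with only the WT 4T1OE-CTL replicate 2 array left of its line. The gene lay 0.99 higher in 4T1OE pools than in those of 4T1OE-CTL (adjusted p = 0.0691). Sqstm1, the receptor p62, and Nbr1 differed by 0.11 and 0.16 in that comparison, with limma adjusted p values of 0.840 and 0.672.

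Both measured mitophagy genes encode receptors of the outer mitochondrial membrane that bind LC3 directly. Bnip3l, also known as NIX, read 13.35 and 13.05 (Nlrx1-/- hosts) and 13.29 and 13.61 (WT hosts) in 4T1OE tumours, against 12.18 and 12.99 (Nlrx1-/- hosts) and 13.61 and 13.70 (WT hosts) in 4T1OE-CTL tumours. Parental tumours read 13.33 (Nlrx1-/- host) and 11.56 and 12.76 (WT hosts), with 11.64 on the left-out array. The lines overlapped, and the parental pools spread the most. The differences were 0.20 for 4T1OE minus 4T1OE-CTL and 0.81 (SE 0.43, adjusted p = 0.440) for 4T1OE minus parental. Fundc1 differed by 0.20 between 4T1OE and 4T1OE-CTL and by -0.71 between 4T1OE-CTL and parental tumours (limma, adjusted p = 0.558 and 0.118).

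The transcription factor genes lay on opposite sides in 4T1OE tumours, and neither was called. Tfeb read 6.84 and 6.94 (Nlrx1-/- hosts) and 6.85 and 6.82 (WT hosts) in 4T1OE tumours, against 7.88 and 7.42 (Nlrx1-/- hosts) and 7.36 and 7.32 (WT hosts) in 4T1OE-CTL tumours. Parental tumours read 6.999 (Nlrx1-/- host) and 7.60 and 7.13 (WT hosts), with 8.44 on the left-out array. All 4T1OE arrays lay below every other array, and 4T1OE minus 4T1OE-CTL was -0.63 (SE 0.20, adjusted p = 0.0891) by limma. Tfe3 read 9.92 and 9.51 (Nlrx1-/- hosts) and 9.84 and 9.45 (WT hosts) in 4T1OE tumours, against 8.84 and 8.19 (Nlrx1-/- hosts) and 8.57 and 9.42 (WT hosts) in 4T1OE-CTL tumours. Its parental values were 8.68 (Nlrx1-/- host) and 8.11 and 9.15 (WT hosts), with 6.89 on the left-out array. All 4T1OE arrays lay above every other array, and the differences were 0.93 (SE 0.29, adjusted p = 0.0858) from 4T1OE-CTL and 1.06 (SE 0.32, adjusted p = 0.140) from parental tumours.

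Of the lysosomal members Lamp1 rose in 4T1OE tumours relative to 4T1OE-CTL. It read 15.63 and 15.82 (Nlrx1-/- hosts) and 15.71 and 15.39 (WT hosts) in 4T1OE tumours, against 14.63 and 15.11 (Nlrx1-/- hosts) and 14.78 and 14.99 (WT hosts) in 4T1OE-CTL tumours. Parental tumours read 15.97 (Nlrx1-/- host) and 15.26 and 15.54 (WT hosts), with 14.08 on the left-out array. The 4T1OE-CTL arrays lay below all other fitted arrays, and 4T1OE and parental overlapped. Means were 15.64 ± 0.18 in 4T1OE (SD, n = 4), 14.88 ± 0.21 in 4T1OE-CTL (n = 4) and 15.59 ± 0.36 in parental tumours (n = 3). The limma difference of 4T1OE minus 4T1OE-CTL was 0.76 (SE 0.20, adjusted p = 0.0497), just inside the threshold, and that of 4T1OE minus parental was 0.0113. The adjusted p was 0.0534 with an intensity trend and 0.112 without the WT 4T1OE-CTL replicate 1 array. This call was also lost with all 12 arrays, quantile normalization, the array standard deviation as covariate and the replicate number as a block. It was lost too without any 1 of the 4 4T1OE arrays, either Nlrx1-/- 4T1OE-CTL array or the WT parental replicate 2 array.

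Lamp2, the companion glycoprotein, read 16.59 and 16.42 (Nlrx1-/- hosts) and 16.36 and 16.78 (WT hosts) in 4T1OE tumours, against 14.18 and 15.45 (Nlrx1-/- hosts) and 16.28 and 16.08 (WT hosts) in 4T1OE-CTL tumours. Parental tumours read 16.61 (Nlrx1-/- host) and 15.19 and 15.90 (WT hosts), with 13.75 on the left-out array. The 4T1OE arrays lay above all 4T1OE-CTL arrays, but the 4T1OE-CTL pools spread widely and the difference of 1.04 (SE 0.42, adjusted p = 0.157) failed the limma test. Npc2, which carries cholesterol out of the lysosome, read 14.18 and 14.27 (Nlrx1-/- hosts) and 14.09 and 14.00 (WT hosts) in 4T1OE tumours, against 12.74 and 13.18 (Nlrx1-/- hosts) and 13.45 and 13.95 (WT hosts) in 4T1OE-CTL tumours. Its parental values were 13.65 (Nlrx1-/- host) and 12.54 and 13.23 (WT hosts), with 11.06 on the left-out array. Every 4T1OE array was above every other array, and the limma differences of 0.80 (SE 0.29, adjusted p = 0.123) from 4T1OE-CTL and 1.00 (SE 0.32, adjusted p = 0.165) from parental tumours did not pass.

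Hexa, the alpha subunit of beta-hexosaminidase, read 11.53 and 11.65 (Nlrx1-/- hosts) and 11.77 and 11.11 (WT hosts) in 4T1OE tumours, against 10.84 and 11.24 (Nlrx1-/- hosts) and 10.76 and 11.61 (WT hosts) in 4T1OE-CTL tumours. Parental tumours read 11.60 (Nlrx1-/- host) and 9.60 and 10.93 (WT hosts), with 8.88 on the left-out array. The lines overlapped, and 4T1OE minus parental was 0.75 (SE 0.39, adjusted p = 0.428) by limma. Of the cathepsin genes, Ctsb and Ctsl were 0.69 and 0.81 higher in 4T1OE relative to 4T1OE-CTL tumours, each without overlap, and Ctss differed by -0.067. Their limma adjusted p values were 0.193, 0.221 and 0.899.

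A wider list of 84 further genes of the pathway with a feature, of 94 listed, held 9 that rose and 1 that fell in 4T1OE relative to 4T1OE-CTL tumours (limma, adjusted p under 0.05), with a median of 0.48, against 3.69% and 1.04% of all features. Lysosomal hydrolases gave 7 of these rises among 28 genes, with 26 positive and a median of 0.89. Tpp1, a tripeptidyl peptidase, read 13.55 and 12.82 (Nlrx1-/- hosts) and 12.81 and 13.68 (WT hosts) in 4T1OE tumours, against 11.30 and 11.06 (Nlrx1-/- hosts) and 11.20 and 11.65 (WT hosts) in 4T1OE-CTL tumours, without overlap, a difference of 1.91 (SE 0.28, adjusted p = 0.00831). The carboxypeptidase gene Ctsa (1.75), the beta-glucuronidase gene Gusb (1.41) and the acid phosphatase gene Acp2 (1.396) rose too. Of 15 genes of the proton pump that acidifies the lysosome 2 rose, its membrane subunit gene Atp6v0a1 and its accessory subunit gene Atp6ap1 (1.76). Atp6v0a1 read 11.54 and 10.94 (Nlrx1-/- hosts) and 11.04 and 10.97 (WT hosts) in 4T1OE tumours, against 9.42 and 9.32 (Nlrx1-/- hosts) and 9.04 and 9.48 (WT hosts) in 4T1OE-CTL tumours, a difference of 1.81 (SE 0.23, adjusted p = 0.00424).

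Of 30 further autophagy genes 0 rose and 1 fell, Atg16l2, a relative of Atg16l1, which read 9.58 and 10.09 (Nlrx1-/- hosts) and 9.62 and 9.84 (WT hosts) in 4T1OE tumours, against 11.63 and 12.49 (Nlrx1-/- hosts) and 11.79 and 10.75 (WT hosts) in 4T1OE-CTL tumours, a difference of -1.88 (SE 0.33, adjusted p = 0.0154). Between 4T1OE-CTL and parental tumours 2 of the 84 genes fell, Atp6v0a1 (-1.79) and the acid alpha-glucosidase gene Gaa (-1.45), against 1.62% of all features lower. Between 4T1OE and parental tumours 1 rose, the cathepsin C gene Ctsc (1.68), against 0.887% of all features higher, and by host genotype 0 were called. In Nlrx1-/- hosts Tpp1 (2.00) and Atp6v0a1 (1.87) rose in 4T1OE relative to 4T1OE-CTL tumours, against 1.1% of all features higher. When the array standard deviation was in the fit, 0 of the 84 were called between 4T1OE and 4T1OE-CTL and the hydrolase median was 0.29. With all 12 arrays, 0 were called. With 1 array left out 2 to 24 were called higher, 2 without the WT 4T1OE replicate 2 or the Nlrx1-/- 4T1OE replicate 1 array and 24 without the WT 4T1OE-CTL replicate 2 array, and quantile normalization called 8 higher and 1 lower.

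Array by array, the lysosomal members ranged more widely than the core. For each gene the value was set against the median of that gene on the 11 fitted arrays, and a list is summarised per array by the median of these differences, its deviation. For the core it was 0.00 to 0.08 on the 4T1OE arrays, -0.58 to -0.02 on the 4T1OE-CTL arrays and -0.07 to 0.33 on the fitted parental arrays. For the lysosomal members it was 0.09 to 0.41 on the 4T1OE arrays, -0.84 to 0.00 on the 4T1OE-CTL arrays and -1.09 to 0.33 on the fitted parental arrays. The 4T1OE pools were close together on both lists, and the parental pools spread the most on the lysosomal one. The lysosomal value is a median of 7 genes and the core value a median of 28, and a median of fewer genes varies more. The lowest lysosomal values, -1.09 and -0.84, were on fitted arrays with a standard deviation of 2.89 and 2.91. The part of list length and array spread in the wider range was not tested.

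Macrophage markers were higher in 4T1OE tumours along with the lysosomal genes. All 15 markers were on the higher side in 4T1OE relative to 4T1OE-CTL tumours, with a median of 1.35. Of these 7 rose (limma, adjusted p under 0.05), against 3.69% of all features. Their deviation was 0.37 to 0.73 on the 4T1OE arrays, -1.90 to 0.00 on the 4T1OE-CTL arrays and -1.13 to 0.01 on the fitted parental arrays, and 0 of the 15 lay under the negative control median on every fitted array. The macrophage deviation was -1.90 to -0.97 on the 4 fitted arrays with a standard deviation under 3, 1 of them parental. On the WT 4T1OE-CTL replicate 2 array it was 0.00, and on the other fitted parental arrays 0.01 and -0.10. An effect of the array spread therefore cannot be told apart from a difference between the lines for these markers either. The part of macrophages in the differences of the members was not tested. Epithelial markers, of which the carcinoma cells are a source, were lower in 4T1OE-CTL relative to parental tumours for 10 of 10 genes. Of these 7 passed the test, against 1.62% of all features called lower. Their deviation was -0.32 to 0.32 on the 4T1OE arrays, -1.42 to 0.49 on the 4T1OE-CTL arrays and 1.57 to 2.62 on the fitted parental arrays, and their part in the fall of Ulk2 and Calcoco1 was not tested. B cell markers stood apart on the replicate 1 pools of Nlrx1-/- hosts, at 3.26 on the 4T1OE and 4.35 on the 4T1OE-CTL array, and so did T cell markers, at 2.72 and 3.84. For all 9 T cell markers the difference was negative for 4T1OE minus 4T1OE-CTL and positive for 4T1OE-CTL minus parental, with 0 called in both.

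Markers of skeletal muscle and of stromal cells also differed between pools. The deviation of 12 skeletal muscle markers was 4.46 on the WT 4T1OE replicate 1 array and -0.95 to 0.05 on the other 4T1OE arrays. It was 0.00 to 3.01 on the 4T1OE-CTL arrays and -0.68 to -0.47 on the fitted parental arrays. For 4T1OE-CTL minus parental the difference was positive for 12 of 12 genes, and 0 were called. The arrays did not overlap for 9 of them, against 4.88% of all features wholly higher. Endothelial markers were higher in 4T1OE relative to 4T1OE-CTL tumours for 9 of 10 genes, of which 3 passed the test, against 3.69% of all features. They were lower in 4T1OE-CTL relative to parental tumours for 10 of 10, of which 1 passed, against 1.62% of all features. Fibroblast markers were lower in 4T1OE relative to parental tumours for 7 of 7 genes, of which 4 passed, against 0.441% of all features. The part of these cells in the differences of the members was not tested.

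**Figure D5:**
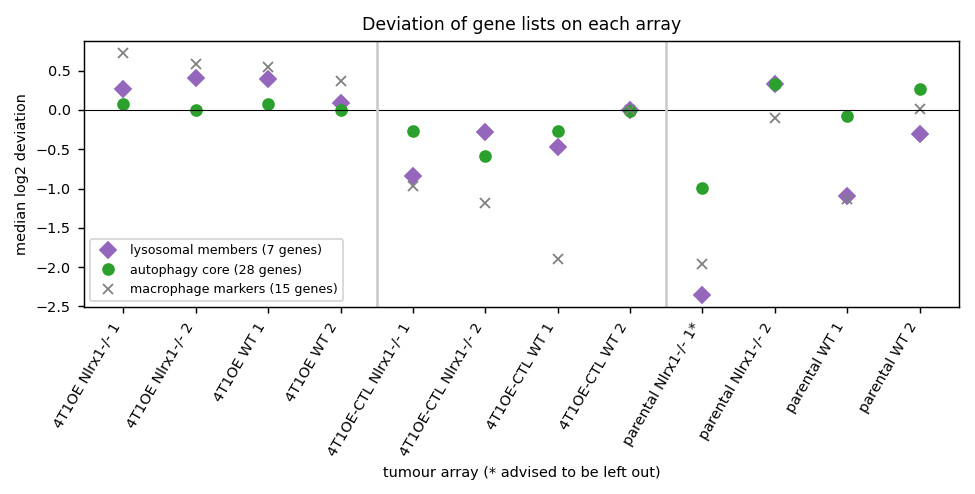
Median log2 deviation of 7 lysosomal members (purple diamonds), 28 autophagy core members (green circles) and 15 macrophage markers (grey crosses) on each of the 12 tumour arrays, ordered by line and host, with 0 at the median of each gene on the 11 fitted arrays. The 4T1OE arrays lie at or above 0 on all 3 lists, and the left-out array, marked with an asterisk, is lowest on all 3, at -0.996, -2.36 and -1.96 for core, lysosomal and macrophage genes.

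Comparing hosts within a line called 0 members. In 4T1OE tumours the median difference of Nlrx1-/- minus WT was 0.07, with 0 members under an unadjusted limma p of 0.05, against 0.874% of all features. In 4T1OE-CTL tumours it was -0.23, with 26 of 35 members negative, and 7 of 35 under an unadjusted limma p of 0.05, against 9.55% of all features. After adjustment 0% of all features were called in either line. The array standard deviations of the Nlrx1-/- 4T1OE-CTL pools were 2.91 and 2.78, against 2.88 and 3.07 in the WT pools, and with it as a covariate the median was 0.0330. Within hosts, 4T1OE minus 4T1OE-CTL had a member median of 0.69 in Nlrx1-/- hosts and 0.33 in WT hosts, and under the covariate these were 0.0599 and 0.0501.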

How the data were processed

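Pooled tumour RNA was hybridised to Clariom S mouse arrays, 2 per group of host and line. The authors deposited log2 expression values, 1 per feature and array, made with the Transcriptome Analysis Console per the submitters' processing notes. Its version and the normalization were not given in the sources used here. Values were used as deposited. Control features, 6640 in all, were removed, leaving 22206. Genes were named through the platform annotation, and features with several symbols were not named. Precision is limited by the number of arrays.

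The 11 arrays were fitted with limma 3.58.1, an R package (R 4.3.3), through lmFit and eBayes. The p values, two-sided, were adjusted by the Benjamini-Hochberg method across the 22206 features, with a threshold of 0.05. An additive model of host and line gave the differences between lines and hosts, and a 6-group model gave those within a host or line and the interaction. The 1 fitted Nlrx1-/- parental array was assumed to vary like the other groups. The fit was tested on simulated data. Alternatives were all 12 arrays, quantile normalization, keeping only the brightest 14804 features, an intensity trend with robust estimation, array weights, the array standard deviation as covariate, leaving out arrays where it was under 3, the compared groups alone, the replicate number as a block and each array left out. A further one, added after seeing the data, left out the 2 arrays with the highest B cell markers.

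The members and lists were chosen with earlier results of these data known. Members called in a comparison, or among the 3 highest or 3 lowest differences of lines or hosts, are given array by array, and the rest by role. Of the further pathway genes, up to 6 called with the largest difference in each direction are named.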

Additional observations from a re-analysis of the deposited data

Results flagged for a closer look

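Single arrays stood apart from the other 3 of their line by Dixon's test in 7 of 105 gene and line combinations (4 arrays per line, both hosts together). The test takes the gap to the nearest array over the range, and chance meets it in about 1 in 20 groups. The count is near that rate, so the arrays are listed as flagged and not as a result about the genes. On the Nlrx1-/- parental replicate 1 array, which the fits left out, Ulk2 read 8.35, with the nearest parental array at 9.84, and Gabarapl1 read 7.59, with the nearest at 10.11. On the Nlrx1-/- 4T1OE-CTL replicate 1 array Ctsl was low at 14.54 (nearest 15.53), Tfeb high at 7.88 (nearest 7.42) and Atg13, under its negative control median throughout, low at 4.13 (nearest 4.53). Among 4T1OE arrays, Atg101 was low on the WT replicate 2 array at 6.74 (nearest 7.01) and Becn1 high on the WT replicate 1 array at 8.19 (nearest 7.96).

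Bnip3l was flagged for lying on opposite sides in the hosts. The rule set 2 pools against 2 in each host, where complete separation also arises by chance. The share of all features meeting it was not counted, so the flag is not a result about this gene. In Nlrx1-/- hosts both 4T1OE pools were above both 4T1OE-CTL pools, and in WT hosts both 4T1OE pools were below both 4T1OE-CTL pools, the nearest pair being equal to 2 decimals. The interaction was 0.83 and did not pass the limma test (adjusted p = 0.999).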

How the results depend on the processing

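With 2 arrays per group and 1 control line, calls near the threshold turned on single arrays. Without arrays whose standard deviation was under 3, only the WT 4T1OE-CTL replicate 2 array was left of its line. No count of calls is given there for comparisons with 4T1OE-CTL. For 4T1OE minus 4T1OE-CTL, the 2 members called became 0 with all 12 arrays, quantile normalization, the array standard deviation as covariate, and, an alternative chosen after seeing the data, without the 2 arrays with the highest B cell markers. They became 1 with an intensity trend and 7 with array weights, and 0 to 7 with 1 array left out. For 4T1OE-CTL minus parental, 2 became 0 with all 12 arrays or without arrays under 3, 1 with the compared groups alone, 5 with array weights and 1 to 5 with 1 array left out. It was 1 without the WT or the Nlrx1-/- parental replicate 2 or the WT 4T1OE-CTL replicate 1 array, and 5 without the WT parental replicate 1 array. For 4T1OE minus parental, 0 became 1 (lower) with array weights, without arrays under 3, with the compared groups alone and, on leaving out 1 array (0 to 1), without the Nlrx1-/- 4T1OE-CTL replicate 2 array. Within Nlrx1-/- hosts, the 1 call of 4T1OE minus 4T1OE-CTL became 0 with all 12 arrays, quantile normalization, the covariate, the compared groups alone and without the B cell arrays, 2 with only the 14804 brightest features, and 0 to 5 with 1 array left out. It was 0 without any 4T1OE array or the Nlrx1-/- 4T1OE-CTL replicate 2 array. Member medians moved by more than the spread between replicates (0.193) as follows. With all 12 arrays they were -0.0499 for 4T1OE-CTL minus parental, 0.39 for 4T1OE minus parental and -0.17 for Nlrx1-/- minus WT hosts. Under quantile normalization, 4T1OE minus 4T1OE-CTL was 0.22, with 0.41 in Nlrx1-/- and 0.14 in WT hosts. Under the covariate it was 0.0664, with 0.0599 in Nlrx1-/- and 0.0501 in WT hosts, the interaction was 0.0287, 4T1OE minus parental was -0.23 and Nlrx1-/- minus WT in 4T1OE-CTL tumours was 0.0330. Without arrays under 3, 4T1OE minus 4T1OE-CTL was 0.18, and within Nlrx1-/- hosts no value could be had. With 1 array left out, the medians ran from -0.63 to -0.26 for 4T1OE-CTL minus parental, where -0.26 was without the Nlrx1-/- parental replicate 2 array, and from 0.18 to 0.57 for the interaction, where 0.57 was without the WT 4T1OE-CTL replicate 1 array. None of the 5 gene differences called changed sign under any alternative run. The causes of these changes were not tested. Deviations of same-numbered arrays correlated at -0.31 to 0.37 over 10 pairs of groups, 2 of them over 0.1. The Nlrx1-/- parental group was not among these pairs. The highest correlation was between the 4T1OE and 4T1OE-CTL groups of Nlrx1-/- hosts. In Nlrx1-/- hosts, B cell marker deviations were 3.26 (4T1OE), 4.35 (4T1OE-CTL) and 2.15 (left-out parental) on replicate 1 arrays. On replicate 2 arrays of these groups they were 0, 0 and -0.13. The other correlation over 0.1, of 0.36, was between the parental and 4T1OE-CTL groups of WT hosts. In both groups the array standard deviation was lower on replicate 1 (2.89 and 2.88) than on replicate 2 (3.07 in each). The correlations therefore cannot decide whether replicate numbers paired the samples. With the replicate number as a block, 0 members were called for 4T1OE minus 4T1OE-CTL (Atg9a adjusted p = 0.0519, Lamp1 0.0535) and 0 within Nlrx1-/- hosts, and Ulk2 (0.0281) and Calcoco1 (0.0198) stayed called in 4T1OE-CTL minus parental. Host genotype called 0 members under every alternative run.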

Other observations

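Other lysosomal genes outside the 38 were mostly on the higher side in 4T1OE relative to 4T1OE-CTL tumours without passing the test. Of 9 genes for lysosomal membrane proteins or cofactors, all 9 had a positive difference, with a median of 0.53, and 0 were called, while 4 had a limma p under 0.05 before adjustment, against 24.2% of all features. Gm2a, the activator of ganglioside breakdown, differed by 1.44 (limma, adjusted p = 0.0602), the progranulin gene Grn by 1.04 (0.0751), the cholesterol transporter gene Npc1 by 1.06 (0.174) and the Batten disease gene Cln3 by 0.71 (0.102). Mitf and Tfec, relatives of Tfeb and Tfe3, differed by 0.42 and 0.27, with adjusted p values of 0.451 and 0.634. The CACGTG motif was present in 8 of 25 promoters of further hydrolase genes (32%) and in 4 of 10 of the proton pump genes (40%), against 8.91% of protein-coding genes. These matches describe the sequence windows only.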
